A study of Homo sapiens with 8 samples.

Results

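MOLM-13 is a human acute myeloid leukaemia line of monocytic type that carries a KMT2A fusion gene, and the comparison described here set MOLM-13 cells with a short hairpin RNA (shRNA) against DDX6 beside MOLM-13 cells with a control shRNA. The members are all genes that passed an expression filter within MOLM-13, 13940 of the 61544 entries in the count table; the filter kept genes with about 10 counts or more in at least 2 libraries. Of the 8 RNA sequencing libraries of the series, 4 are from MOLM-13, 2 in each group, and the other 4 are from HEL, an erythroleukaemia line with the same groups. The HEL columns name their hairpin shRNA2 and the MOLM-13 columns give no hairpin number, so whether both lines received 1 and the same hairpin is not given in the sources used here. Cells of both groups had the labelled genotype WT, grew in RPMI medium with serum, received a lentivirus with either hairpin, and were then kept under puromycin, so the control cells carry a vector and its selection too. The sources used here give neither the hairpin sequence nor the time from transduction to harvest. The labels number the libraries 1 and 2 in each group without naming separate cultures, so p-values measure only how far libraries of 1 group differ, and that may be technical variation.

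DDX6 is a DEAD-box RNA helicase that binds repressed mRNAs and is needed to build P-bodies, cytoplasmic granules that hold untranslated transcripts. It joins the deadenylase complex that microRNAs recruit to the decapping enzymes, so it acts both in storing mRNAs and in their decay. Monocytes can mature into macrophages, a step that replaces bactericidal and migratory proteins with receptors for debris, lysosomal proteins and scavenger receptors, and leukaemias with a KMT2A fusion stay at an early point of this path.

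Library totals ran from 7888318 to 8174432 counts, so 3 counts corresponded to 0.367 to 0.383 CPM (counts scaled to a common total), and counts of the 4 libraries can be set side by side almost as they are. The first principal component, with 80.2% of the variance, separated the groups, and the second, with 11.2%, separated the control libraries from each other. These 2 controls differed by more than counting noise, with a chi-square per degree of freedom of 3.69 against 1.77 for the DDX6 shRNA pair. Across 11753 protein-coding genes, the ratio of control 1 to control 2 had a Spearman correlation with transcript GC content of -0.543, and the log2 fold change between the groups had one of 0.0859, as a description over genes of the same libraries. Of 15 monocytic marker genes, 14 had at least 10 counts in every library, and their summed level was 8569.5 and 9044.3 CPM in the controls and 9883 and 10103 CPM with DDX6 shRNA. Erythroid markers summed to at most 2.028 CPM and megakaryocyte markers to at most 18.408 CPM in any library, with HBG1 and PPBP at 0 in all of them. T and NK cell markers summed to 109.91 and 127.96 CPM in the controls and 190.99 and 168.56 CPM with DDX6 shRNA, and B cell markers to at most 4.261 CPM. Among the former CD3D went from 52 and 46 to 365 and 314 counts and NKG7 from 761 and 947 to 1129 and 1014, while TRAC went from 49 and 47 to 26 and 16 and CD3E and CD3G had at most 3 in any library; the part of such cells was not tested.

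The targeted gene, DDX6 (ENSG00000110367, chromosome 11, 118747766 to 118791149 on GRCh38), was counted 978 and 966 times in the controls and 516 and 558 times with DDX6 shRNA. The groups did not overlap, and the log2 fold change was -0.81 ± 0.099 (SE, edgeR adjusted p = 1.48e-09). A reduction of this size leaves DDX6 transcript in every shRNA library.

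In all, 4625 of the 13940 genes passed an adjusted p of 0.05 in edgeR's quasi-likelihood test, 33.2% of those tested. Of these, 2503 rose (18%) and 2122 fell (15.2%), and the median log2 fold change over all genes was -0.02. A change of at least 2-fold was seen for 772 of the rises and 262 of the falls, so the rises reached further than the falls. Among protein-coding genes 19.8% rose and 15.4% fell, among 1188 long noncoding genes 9.26% and 15.8%, and among 695 pseudogenes 4.46% and 13.1%. The share that rose was also higher among GC-rich genes: 28.0% in the quintile with the highest GC content and 12.2% in the quintile with the lowest, while the share that fell was 15.5% and 15.7%. Since the control libraries differed from each other along the same axis, a fit with the GC trend taken out of each library was added, and it called 2966 higher and 2669 lower. The number of calls depended on the fit: DESeq2 gave 1610 and 1006, edgeR without DDX6 shRNA library 1 gave 1570 and 1031, and without DDX6 shRNA library 2 it gave 1497 and 836. Without any filter on low counts, 812 and 288 of 32727 genes were called. Counts of list members given below for an alternative fit are to be read beside the totals over all genes in that fit. No gene called in the reported fit was called in the opposite direction in any alternative. Both DDX6 shRNA libraries lay above both controls in 4463 of the 13940 genes and below both in 4613. Groups that do not overlap were thus common. Most genes named below were also picked by small adjusted p, large change or non-overlap, so their separation adds no support.

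**Figure D1:**
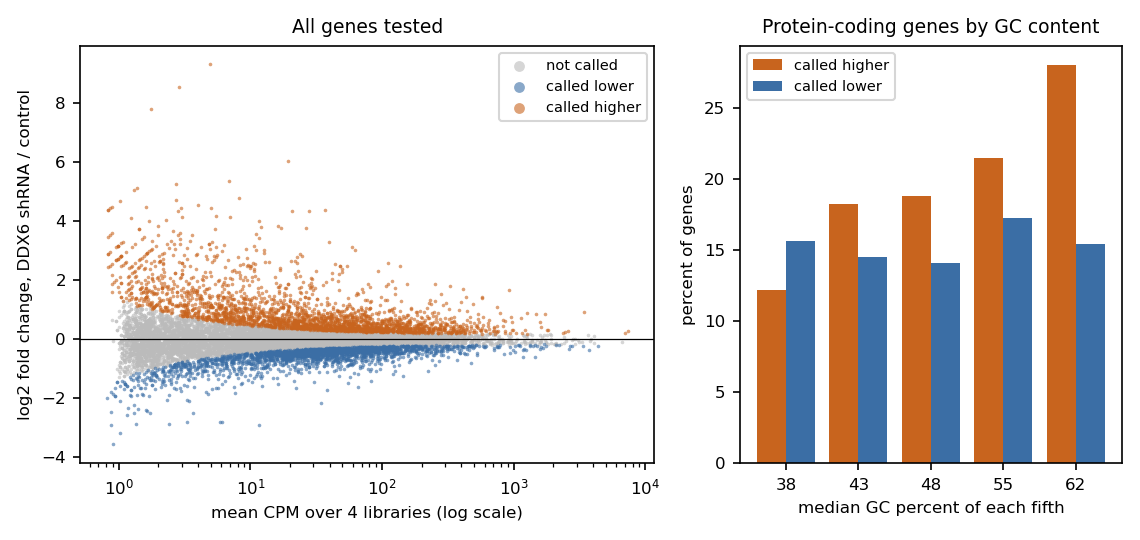
Left, log2 fold change of DDX6 shRNA over control (vertical axis) against mean CPM over the 4 MOLM-13 libraries (log horizontal axis), 1 point per gene tested, coloured by call. Right, percent of protein-coding genes called higher or lower in each quintile of transcript GC content; the share called higher goes from 12.2% to 28.0% while the share called lower stays between 14.1% and 17.3%.

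Most of the tested macrophage genes rose. Of 35 genes listed as macrophage markers, 21 passed the filter, 3 of them only through the DDX6 shRNA libraries, and of the 21 tested 15 rose, those 3 included, and 0 fell, against 18% and 15.2% of all genes. A member with under 10 counts in both libraries of the group where it is low passed only through the other group and had to differ. So counts and medians describe the tested members, not the whole lists. In the lists that follow, members that low number at most 1 in each direction unless more are given. A gene with 10 counts in 1 of those libraries can fall just short of the filter too, as FCN1 and SERPING1 did. Where only 1 of the 2 libraries fell short, the gene still needed the other group to pass. The median log2 fold change of the 21 macrophage genes was 1.03, against -0.02 over all genes tested. Counts are given for control libraries 1 and 2 and then for DDX6 shRNA libraries 1 and 2, followed in brackets by the log2 fold change ± SE; each gene said to rise or fall passed with an edgeR adjusted p of at most 7.28e-04 (POM121C). In bulk RNA, more cells of a type and more RNA per cell cannot be told apart, here and in all that follows. TREM2 (ENSG00000095970, chromosome 6, 41158506 to 41163186 on GRCh38), a lipid receptor of macrophages and microglia, had 113 and 108 counts in the controls and 890 and 855 with DDX6 shRNA, a log2 fold change of 3.02 ± 0.12 (edgeR adjusted p = 5.72e-27). C1QA, a chain of the complement protein C1q, went from 15 and 17 to 173 and 162 counts (3.42 ± 0.22, adjusted p = 6.83e-19). CHI3L1, a chitinase-like secreted protein, went from 337 and 424 to 1305 and 1417 counts (1.88 ± 0.10). In each of these 3 genes both shRNA libraries were far above both controls. GPNMB, a glycoprotein of lipid-laden macrophages, had 48 and 38 against 222 and 219 counts (2.40 ± 0.18). SIGLEC1, the sialic acid receptor of tissue macrophages, had 9 and 11 against 85 and 95 (3.19 ± 0.28). CSF1R (ENSG00000182578, chromosome 5, 150053291 to 150113372 on GRCh38), the receptor for the macrophage growth factor CSF1, had 647 and 672 against 1546 and 1583 (1.29 ± 0.092, adjusted p = 2.88e-17). These 3 did not overlap between the groups either, but SIGLEC1 needed the DDX6 shRNA libraries to pass the filter. SIGLEC1 and CSF1R are not members of the macrophage list.

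Single genes of classical monocytes were lower. Of the 15 monocytic markers summed above 7 rose and 3 fell, the falls being MPO, CD14 and FCN1. That set also holds the granule genes MPO, AZU1, ELANE and PRTN3. Its sum rests largely on abundant genes such as LYZ (19439 and 18466 counts in the controls) and PRTN3 (9824 and 11586), not on CD14 and FCN1. CD14 (ENSG00000170458, chromosome 5, 140631728 to 140633701 on GRCh38), the endotoxin co-receptor, had 72 and 93 counts in the controls and 11 and 12 with DDX6 shRNA. FCN1 (ENSG00000085265, chromosome 9, 134905890 to 134917963 on GRCh38), a secreted lectin of monocytes, had 53 and 47 against 7 and 10 counts (-2.50 ± 0.33, adjusted p = 1.67e-08), and S100A9, a calcium-binding protein of monocytes and neutrophils, 60 and 67 against 17 and 21 (-1.69 ± 0.26). CD14, FCN1 and S100A9 were at low levels already in the controls, and their groups did not overlap. FCN1 fell short of the filter's level in both DDX6 shRNA libraries, so it passed only through the controls and had to differ. The promoters of 2 genes that rose and 2 that fell, from 250 bases before to 50 after the annotated start, are given below from RefSeq on GRCh38.p14, since these genes moved apart within 1 lineage. Capitals mark GAGGAA, the core bound by the myeloid factor PU.1, and TGANTCA, the AP-1 core, both searched on either strand; no capital letters overlap between the motifs.
CSF1R promoter, chr5:150113316-150113615, minus strand: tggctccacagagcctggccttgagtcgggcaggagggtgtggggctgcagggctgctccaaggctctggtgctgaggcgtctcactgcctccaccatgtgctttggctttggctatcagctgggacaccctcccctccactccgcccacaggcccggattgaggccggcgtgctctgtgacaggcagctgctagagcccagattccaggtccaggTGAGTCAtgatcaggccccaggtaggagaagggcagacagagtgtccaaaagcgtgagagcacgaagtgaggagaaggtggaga
TREM2 promoter, chr6:41163067-41163366, minus strand: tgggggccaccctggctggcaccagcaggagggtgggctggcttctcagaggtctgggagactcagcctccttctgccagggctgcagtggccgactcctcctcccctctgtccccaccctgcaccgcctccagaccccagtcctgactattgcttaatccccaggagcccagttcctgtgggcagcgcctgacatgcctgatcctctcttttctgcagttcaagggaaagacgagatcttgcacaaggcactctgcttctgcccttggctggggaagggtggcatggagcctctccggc
CD14 promoter, chr5:140633126-140633425, minus strand: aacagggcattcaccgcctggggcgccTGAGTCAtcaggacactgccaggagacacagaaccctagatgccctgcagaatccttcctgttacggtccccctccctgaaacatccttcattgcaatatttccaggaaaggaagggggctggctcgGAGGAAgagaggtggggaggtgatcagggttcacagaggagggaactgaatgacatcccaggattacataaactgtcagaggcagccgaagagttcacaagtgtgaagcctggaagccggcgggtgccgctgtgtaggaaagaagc
FCN1 promoter, chr9:134917863-134918162, minus strand: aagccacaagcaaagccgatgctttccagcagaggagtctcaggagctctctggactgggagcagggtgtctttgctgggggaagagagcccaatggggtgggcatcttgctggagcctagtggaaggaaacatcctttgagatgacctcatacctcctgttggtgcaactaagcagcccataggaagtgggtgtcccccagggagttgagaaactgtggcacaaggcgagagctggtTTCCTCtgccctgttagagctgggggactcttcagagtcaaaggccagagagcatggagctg
GAGGAA lies in the windows of CD14 and FCN1 and TGANTCA in those of CSF1R and CD14, while the TREM2 window has neither. Over the windows of 11 named myeloid genes that were searched, GAGGAA was found in 2 of 7 genes that rose (GPNMB and CTSG) and 3 of 4 that fell (CD14, FCN1 and S100A8, with none in FPR1), and TGANTCA in 2 of 7 and 2 of 4. GAGGAA was found in 27.4% of the promoters of genes that rose, 27.4% of those that fell and 27.3% of those not called, and TGANTCA in 5.49%, 4.06% and 4.28%. A match only describes the letters of the window. Each window was taken at 1 annotated start of its gene. Whether MOLM-13 cells start transcription there, for CSF1R or any other of these genes, was not tested.

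**Figure D2:**
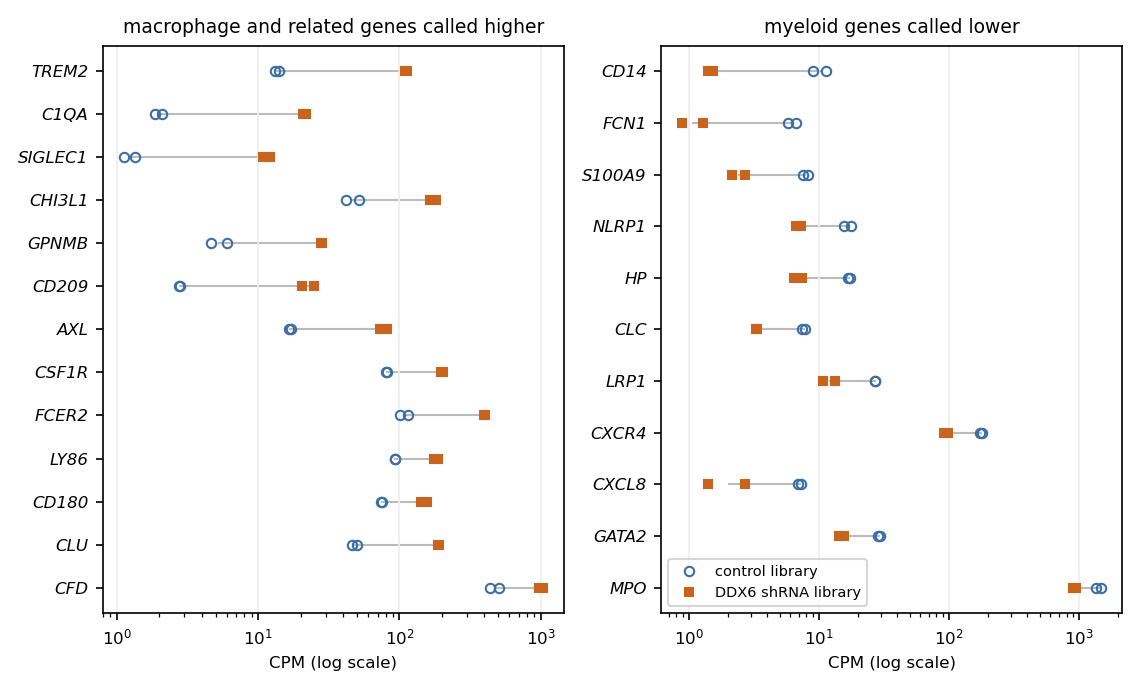
CPM (log horizontal axis) of myeloid genes in each MOLM-13 library; open circles are the 2 control libraries, squares the 2 DDX6 shRNA libraries, and the line joins the group means. No gene shown overlaps between the groups: TREM2 goes from 14.1 and 13.2 CPM to 113 and 109, and CD14 from 9 and 11.4 to 1.39 and 1.53. FCN1 had to differ, since it passed the filter only through the controls.

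Genes for sensing microbes fell more often than genes at large. Of 46 tested pattern recognition and inflammasome genes 17 fell and 3 rose, with a median log2 fold change of -0.20; 3 passed the filter only through the controls. NLRP1, an inflammasome sensor, went from 125 and 145 to 53 and 57 counts (-1.25 ± 0.18, adjusted p = 1.33e-07). The genes that rose included CD180, a Toll-like receptor homologue that restrains signalling, with 593 and 618 against 1126 and 1233 counts (adjusted p = 1.12e-12), and its partner LY86, with 748 and 757 against 1491 and 1367 (0.97 ± 0.092). So both subunits of this receptor complex moved up while most of the called members of the list moved down. TLR2 (914 and 798 against 815 and 846 counts, adjusted p = 0.983) and TLR4 (-0.27 ± 0.12, adjusted p = 0.0743) did not pass. The number of falls was 8 with DESeq2, 7 without DDX6 shRNA library 1 and 9 without library 2.

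Among immunoglobulin Fc receptors and paired immune receptors, 17 of 55 tested rose and 7 fell (median 0.17). FCER2, the low-affinity IgE receptor CD23, had 813 and 938 counts in the controls and 3122 and 3154 with DDX6 shRNA, a log2 fold change of 1.88 ± 0.088 (adjusted p = 4.80e-25). FCGRT, which recycles IgG, had 928 and 1096 against 1892 and 1854 (0.93 ± 0.089). Both genes were higher in each shRNA library than in either control. The rises numbered 11 without DDX6 shRNA library 2, and the falls 3 with DESeq2, 3 without DDX6 shRNA library 1 and 11 without control 1. Complement genes had 7 rises and 4 falls among 17. CLU, the complement-inhibiting chaperone clusterin, went from 368 and 409 to 1476 and 1503 counts (1.98 ± 0.099) and SERPING1, the C1 inhibitor, from 8 and 10 to 72 and 82 (3.12 ± 0.30). CFD, the protease factor D that starts the alternative pathway, went from 3523 and 4131 to 8183 and 7656 (1.09 ± 0.077). A recognition chain (C1QA), a protease and 2 inhibitors of 1 cascade thus rose, but they were named for their small adjusted p. SERPING1 fell short of the filter's level in both controls, so it passed only through the DDX6 shRNA libraries and had to differ. Over the list 41.2% rose and 23.5% fell, against 18% and 15.2% of all genes, with a median of 0.13. The complement falls numbered 2 with DESeq2 and 2 without DDX6 shRNA library 1.

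Markers of other myeloid branches moved in both directions. Dendritic cell genes rose in 7 and fell in 3 of 17 tested cases (median 0.02). CD209, the lectin DC-SIGN, had 22 and 23 counts in the controls and 195 and 159 with DDX6 shRNA (3.01 ± 0.21), and CIITA, the master activator of MHC class II genes, 276 and 295 against 569 and 555 (1.02 ± 0.11). Of the exons of CIITA 11.6% lie opposite DEXI, and without a stated strand setting reads of 2 genes on opposite strands cannot be told apart, here or where such an overlap is given further on. Osteoclast genes had 5 rises and 2 falls among 11; OCSTAMP, a fusion receptor, rose (1.93 ± 0.24) and CTSK, the bone-dissolving cathepsin K, fell (-1.25 ± 0.23). Neutrophil granule genes had 4 rises and 3 falls among 13: SLPI, a protease inhibitor, rose (2.03 ± 0.14) and HP, haptoglobin, fell (-1.31 ± 0.18). Eosinophil, basophil and mast cell genes had 3 rises and 4 falls among 15, of which 2 passed only through the DDX6 shRNA libraries. CTSG, the granule protease cathepsin G, went from 1103 and 1219 to 3319 and 3244 counts (1.54 ± 0.084) and TPSB2, a mast cell tryptase with near-identical copies that can share its reads, from 54 and 50 to 315 and 296 (2.59 ± 0.16). GATA2, the transcription factor of that lineage, went from 234 and 231 to 112 and 122 (-0.95 ± 0.14) and CLC, the eosinophil galectin, from 63 and 61 to 26 and 26 (-1.21 ± 0.24). The proteases thus rose while the lineage factor fell. With DESeq2 the falls numbered 1 for dendritic cells, 1 for neutrophil granules and 2 for eosinophil, basophil and mast cells, for which there were also 2 without DDX6 shRNA library 1. Eosinophil, basophil and mast cell rises numbered 5 with the GC trend removed.

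Chemokine genes also split. Of 22 tested, 7 rose and 5 fell, near the background in median (-0.06), and 2 passed the filter only through the DDX6 shRNA libraries and 2 only through the controls. CCL24, a ligand for eosinophils made by macrophages, went from 23 and 24 to 133 and 120 counts (2.46 ± 0.22), and CXCR3 from 16 and 30 to 97 and 87 (2.04 ± 0.24). CXCR4 (ENSG00000121966, chromosome 2, 136114349 to 136118165 on GRCh38), the receptor that holds leukaemia cells in the marrow, went the other way, from 1426 and 1404 to 726 and 774 (-0.87 ± 0.092, adjusted p = 2.42e-11). CXCL8, the neutrophil attractant, had 55 and 60 against 11 and 21 counts (-1.80 ± 0.28). Cytokine ligands rose in 3 (18.8%) and fell in 5 (31.25%) of 16 cases, against 18% and 15.2% of all genes, with a median of 0.06. IL18BP, which neutralises interleukin 18, rose (1.24 ± 0.14, with 15.6% of its exons opposite NUMA1) and IL1RN, the interleukin 1 receptor antagonist, fell (-0.82 ± 0.13). The 5 cytokine falls became 2 with DESeq2 and 3 without control 1 or without DDX6 shRNA library 1, and the rises 5 without control 2 and 6 with the GC trend removed. TNF family genes had 7 rises and 3 falls among 29, with 4 rises by DESeq2. Their receptors TNFRSF4 (3 and 5 to 45 and 39 counts) and TNFRSF25 (9 and 8 to 75 and 63) rose from few counts in the controls and are the 2 members that passed the filter only through the shRNA libraries, and TNFRSF10D, a decoy receptor for TRAIL, fell (-0.67 ± 0.12).

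Of 22 tested receptor tyrosine kinases 10 rose and 2 fell (median 0.55); 2 passed the filter only through the DDX6 shRNA libraries, TIE1 among them, and 1 only through the controls. Beside CSF1R, AXL, a receptor for dying cells, went from 136 and 136 to 645 and 569 counts (2.20 ± 0.13, adjusted p = 3.37e-21). RET went from 407 and 366 to 690 and 787 (0.97 ± 0.11), and TIE1, an endothelial receptor, from 8 and 7 to 69 and 69 (3.22 ± 0.31). AXL and RET were above both controls in both shRNA libraries. TIE1 was too, but it had to be, since it passed the filter only through those libraries. FLT3, the kinase mutated in MOLM-13, did not pass (2376 and 2133 against 2155 and 2252 counts, 0.01 ± 0.083, adjusted p = 0.958). Endothelial markers as a group summed to 262.67 and 256.41 CPM in the controls and 491 and 522.2 CPM with DDX6 shRNA. This came mostly through PECAM1 (2051 and 2072 to 3899 and 4148 counts), which myeloid cells also make. The part of endothelial cells was not tested. TGF-beta and BMP pathway genes had 12 rises and 2 falls among 40. The BMP antagonist gene NOG went from 241 and 253 to 590 and 667 counts (1.39 ± 0.11) and ID2, a BMP target that blocks helix-loop-helix factors, from 365 and 369 to 743 and 709 (1.02 ± 0.11). An inhibitor and a target of 1 pathway therefore rose together. Notch pathway genes had 6 rises (20%) and 1 fall (3.33%) among 30, against 18% and 15.2% of all genes, and the ligand gene DLL1 rose (1.01 ± 0.22).

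Genes for lipid mediators rose more often than genes at large. Of 32 tested eicosanoid genes, 15 rose and 4 fell (median 0.38), and the falls numbered 2 without DDX6 shRNA library 1. ALOX12, the platelet-type lipoxygenase, went from 46 and 46 to 326 and 336 counts (2.88 ± 0.16), with 18.8% of its exons opposite ALOX12-AS1. PTGDS, a prostaglandin D synthase that shares 23.4% of its exons with AL807752.7 on the same strand, went from 45 and 51 to 345 and 243 (2.65 ± 0.18), and PTGS1, the constitutive cyclooxygenase, from 615 and 617 to 1186 and 1141 (0.96 ± 0.095, adjusted p = 3.49e-12). The prostacyclin receptor gene PTGIR went from 89 and 102 to 275 and 289 (1.60 ± 0.15). Enzymes and a receptor of the prostaglandin branch were thus all higher in both shRNA libraries. Purine receptors and ectonucleotidases rose in 11 and fell in 1 of 21 cases (median 0.30), with 5 and 4 rises without DDX6 shRNA library 1 or 2. ENPP2, autotaxin, which makes lysophosphatidic acid, went from 112 and 95 to 601 and 585 (2.56 ± 0.13), and ADA2, a secreted adenosine deaminase of monocytes, from 2336 and 2518 to 3246 and 3512 (0.52 ± 0.080). Sphingolipid and phosphoinositide genes had 26 rises and 6 falls among 74. CERS4, a ceramide synthase, went from 48 and 42 to 277 and 271 (2.64 ± 0.17). These rises numbered 15 with DESeq2 and 15 and 12 without DDX6 shRNA library 1 or 2, and the falls 2 in each of those 3 fits and with the replicate block.

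Among the metabolic lists, the share that rose was highest for antioxidant genes. Of 64 tested NRF2 targets and glutathione genes 32 rose and 6 fell (median 0.21). GSTM3, a glutathione transferase, went from 103 and 130 to 660 and 615 counts (2.49 ± 0.13), GSTM2 from 114 and 88 to 242 and 219 (1.23 ± 0.15), and the quinone reductase gene NQO1, 17.7% of whose exons lie opposite AC092115.2, from 289 and 347 to 627 and 638 (1.03 ± 0.11). PRDX1, a peroxidase, went from 2770 and 2915 to 4568 and 4649 (0.74 ± 0.077), with 24.9% of its exons opposite MMACHC. All 4 sit in separate ranges in the 2 groups. Without DDX6 shRNA library 1 or 2, 16 and 18 of the list rose and 2 and 1 fell, and 2 fell with DESeq2. Fatty acid oxidation and peroxisome genes had 20 rises and 8 falls among 65; ECHS1, a mitochondrial hydratase, went from 1730 and 1945 to 3051 and 2775 (0.71 ± 0.083) and ACADVL, the very long chain dehydrogenase, from 3317 and 3747 to 4940 and 4719 (0.49 ± 0.077). The rises were 12 and 11 without DDX6 shRNA library 1 or 2, and the falls 2 and 1 in those fits, 3 without control 2, 5 with the replicate block and 1 with DESeq2. Tricarboxylic acid cycle genes had 9 and 1 among 38, with 5 and 2 rises without DDX6 shRNA library 1 or 2 and 14 with all 8 libraries in 1 model. In the reported fit 23.7% of the tricarboxylic acid cycle genes rose and 2.63% fell, against 18% and 15.2% of all genes. MDH1, the cytosolic malate dehydrogenase, rose by 0.42 ± 0.080 on the log2 scale.

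Genes for lipid uptake and export had 13 rises and 5 falls among 37 (median 0.25). PLTP, which moves phospholipids between lipoproteins, went from 328 and 374 to 863 and 854 counts (1.33 ± 0.11) and CD36, a scavenger receptor for oxidised lipoprotein, from 698 and 580 to 1159 and 1291 (0.98 ± 0.099). LRP1, an endocytic receptor, went from 214 and 222 to 85 and 105 (-1.16 ± 0.15) and LPCAT1, an acyltransferase of membrane phospholipids, from 1327 and 1289 to 725 and 633 (-0.91 ± 0.095). So 1 uptake receptor rose and another fell. The rises numbered 8 with DESeq2 and 6 without DDX6 shRNA library 2, and the falls 3 with DESeq2 and 3 without library 1. Iron genes had 10 rises and 7 falls among 30; SLC48A1, a haem exporter of the lysosome, and TFRC, the transferrin receptor, rose (0.97 ± 0.14 and 0.60 ± 0.090). The iron rises were 6 without DDX6 shRNA library 2, and the falls 1 when either shRNA library was left out, 2 with DESeq2 and 3 with the replicate block. QPRT, an enzyme that makes NAD from tryptophan (15.7% of exons shared with AC009086.2), went from 293 and 306 to 1036 and 931 counts (1.76 ± 0.11). Its list of 28 NAD and tryptophan genes had 6 rises (21.4%) and 2 falls (7.14%), against 18% and 15.2% of all genes. The rises were fewer when either shRNA library was left out.

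Genes of the actin skeleton and its regulators rose broadly. Of 67 tested actin motility and podosome genes 30 rose and 3 fell (median 0.17). MYL9, a myosin light chain, went from 53 and 66 to 581 and 557 counts (3.30 ± 0.15, adjusted p = 6.99e-26). GSN (ENSG00000148180, chromosome 9, 121207794 to 121332843 on GRCh38), which severs filaments, went from 2425 and 2628 to 6587 and 6593 (1.42 ± 0.077), TPM4, a tropomyosin, from 1905 and 1883 to 4809 and 5163 (1.44 ± 0.080), and FLNA, which crosslinks filaments, from 7970 and 8994 to 14171 and 15525 (0.85 ± 0.073). In these genes the shRNA libraries lay close to each other and well above the controls. GSN, TPM4 and FLNA were abundant in both groups, while MYL9 had at most 66 counts in a control library. Without DDX6 shRNA library 2, 16 of the list rose, and the falls numbered 5 without control 1 and 6 with the GC trend removed.

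Proteins that cut the matrix or sit at the cell surface showed larger shifts. Metalloproteases and their inhibitors had 21 rises and 2 falls among 34 tested (median 0.65), and 3 of them passed the filter only through the DDX6 shRNA libraries. MMP2, the gelatinase A gene (ENSG00000087245, chromosome 16, 55389700 to 55506691 on GRCh38), went from 263 and 286 to 953 and 988 counts (1.86 ± 0.11, adjusted p = 3.37e-21), and the matrix protease gene ADAMTS10 from 45 and 45 to 223 and 218 (2.33 ± 0.17). Guidance genes rose in 16 of 28 and fell in 2 (median 0.56). NRP1, a semaphorin and VEGF co-receptor, went from 105 and 91 to 339 and 343 (1.84 ± 0.14), PLXND1, a semaphorin receptor, from 1341 and 1464 to 2577 and 2551 (0.91 ± 0.084), and the ligand gene SEMA7A from 108 and 107 to 241 and 261 (1.26 ± 0.14). Ligand, receptor and co-receptor of this family were each higher in both shRNA libraries. Tetraspanins and MS4A proteins rose in 14 of 23 and fell in 1 (median 0.51), with 2 that passed only through the shRNA libraries. CD9 went from 129 and 124 to 397 and 477 (1.83 ± 0.13) and CD82 from 353 and 427 to 949 and 902 (1.29 ± 0.10); both organise adhesion receptors in the membrane. Annexins, S100 proteins and galectins had 13 rises and 3 falls among 26, and again 2 passed only through the shRNA libraries. ANXA2 rose (1041 and 1094 to 1874 and 1813, 0.83 ± 0.087) and ANXA1, which glucocorticoids induce, fell (695 and 710 to 456 and 473, -0.56 ± 0.10). The median GC content of the tested members was 58.2% for metalloproteases and 59.8% for guidance genes, against 48.4% for all genes tested; its part in these rises was not tested beyond the fit with the GC trend removed, which called 21 and 17 rises.

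**Figure D3:**
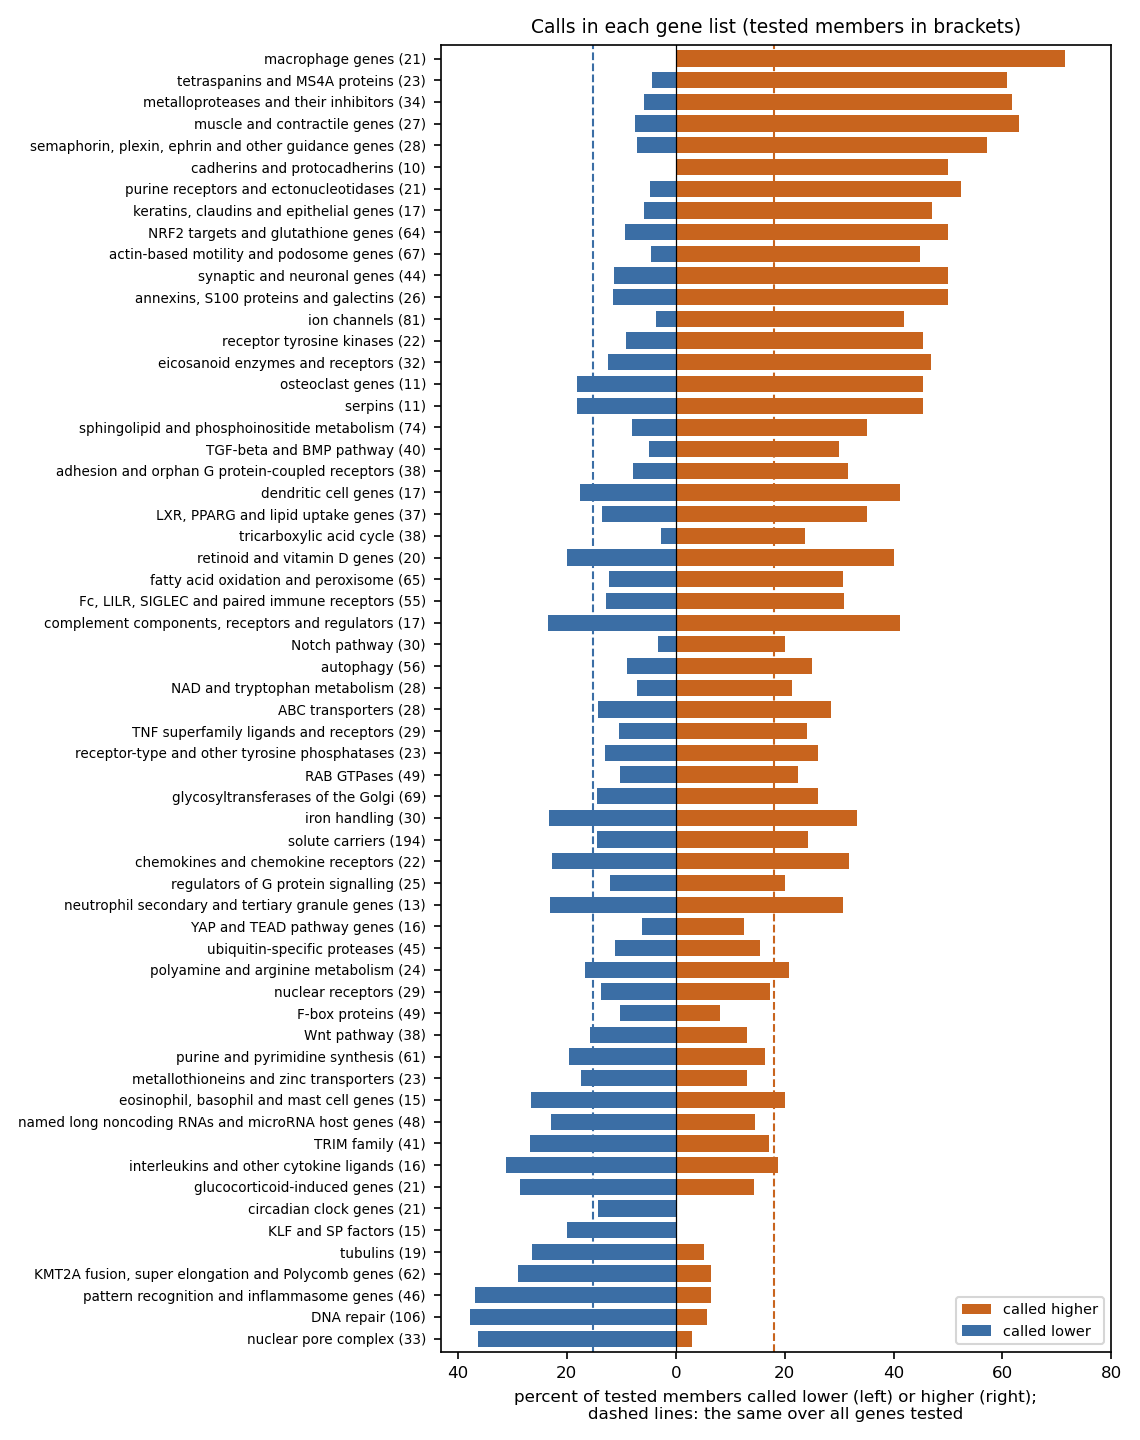
Percent of tested members called lower (left) and higher (right) in MOLM-13 DDX6 shRNA for gene lists with at least 10 tested members, the number tested in brackets; dashed lines give 15.2% and 18% over all genes tested. Macrophage genes have the longest bar to the right, 15 of 21, and DNA repair genes the longest to the left, 40 of 106.

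Genes best known from other tissues were among the steepest rises. Of 195 listed ion channel genes 81 passed the filter, 9 only through the DDX6 shRNA libraries; 34 rose and 3 fell (median 0.22). KCNH2, the hERG potassium channel gene (ENSG00000055118, chromosome 7, 150944961 to 150978315 on GRCh38), went from 27 and 15 to 400 and 432 counts (4.34 ± 0.19, adjusted p = 3.84e-26), and CACNB3, a calcium channel subunit, from 99 and 99 to 292 and 278 (1.57 ± 0.14). Of 132 synaptic and neuronal genes 44 passed, 5 only through the shRNA libraries, and 22 rose and 5 fell (median 0.51). NRXN2, a synaptic adhesion protein, went from 11 and 15 to 178 and 176 (3.80 ± 0.23), BEX1, a small protein of the brain, from 1074 and 1124 to 2682 and 2296 (1.22 ± 0.088), and the neural adhesion gene L1CAM from 5 and 7 to 109 and 101 (4.14 ± 0.30). KCNH2, NRXN2 and L1CAM had 27 counts or fewer in each control library, while BEX1 was well counted in both groups. L1CAM passed the filter only through the shRNA libraries and so had to differ. Of 66 muscle genes 27 passed, 4 only through the shRNA libraries; 17 rose and 2 fell (median 0.79). CSRP3, a muscle LIM protein, went from 14 and 20 to 232 and 240 (3.83 ± 0.21), TNNT1, the slow troponin T, from 465 and 538 to 1293 and 1176 (1.34 ± 0.099), and MYBPH from 105 and 125 to 374 and 369 (1.73 ± 0.14). Of 108 epithelial genes only 17 passed, 1 only through the shRNA libraries, with 8 rises and 1 fall. JUP, plakoglobin of cell junctions, went from 239 and 287 to 786 and 731 (1.57 ± 0.11) and KRT17, a keratin, from 70 and 65 to 186 and 201 (1.56 ± 0.16). The 5 defining epithelial markers summed to 3.676 and 4.526 CPM in the controls and 6.892 and 8.766 CPM with DDX6 shRNA. The 6 stromal markers summed to 9.399 to 16.48 CPM, so both sets were low in every library. Ion channel rises were 22 without DDX6 shRNA library 1. The falls numbered 1 for ion channels when either shRNA library was left out, with DESeq2 or with the replicate block, and 6 without control 1. For synaptic genes they numbered 1 without DDX6 shRNA library 2, 2 without library 1 or with DESeq2, and 3 without control 2 or with the replicate block.

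Among transporters and receptors of the membrane, solute carriers were called at shares near the background. Of 194 tested 47 rose (24.2%) and 28 fell (14.4%), against 18% and 15.2% of all genes, with a median of 0.07; 3 passed only through the DDX6 shRNA libraries and 2 only through the controls. SLC37A2, a sugar phosphate carrier of macrophages, went from 431 and 529 to 1163 and 1200 counts (1.34 ± 0.10), and the nucleoside carrier genes SLC29A4 and SLC28A3 rose as well (1.86 ± 0.16 and 1.61 ± 0.14). Solute carrier rises numbered 31 with DESeq2 and 30 without DDX6 shRNA library 1, and the falls 12, 8 and, without library 2, 12. ABC transporters had 8 rises and 4 falls among 28. ABCC4, which exports cyclic nucleotides and prostaglandins, went from 273 and 247 to 452 and 528 (0.95 ± 0.12), and the glutathione conjugate exporter ABCC1 from 417 and 396 to 593 and 640 (0.64 ± 0.11). Both exporters were higher in each shRNA library than in the controls. The ABC rises were 5 with DESeq2 and 4 and 3 without DDX6 shRNA library 1 or 2, and the falls 0 and 1 in those fits. Adhesion and orphan G protein-coupled receptors had 12 rises and 3 falls among 38; ADGRB1, a receptor for phosphatidylserine on dying cells, went from 24 and 26 to 135 and 127 (2.42 ± 0.21). Glycosyltransferases of the Golgi had 18 and 10 among 69, of which 3 passed only through the shRNA libraries. MGAT3, which bisects N-glycans, went from 18 and 21 to 116 and 142 (2.76 ± 0.23), and ST8SIA6, a sialyltransferase, from 27 and 30 to 120 and 158 (2.32 ± 0.21). The glycosyltransferase falls were 16 without control 1 or with the GC trend removed, and 4 and 5 without DDX6 shRNA library 1 or 2. Cadherins passed the filter in 10 of 110 cases, with 5 rises and 0 falls, among them FAT1 (19 and 11 to 43 and 56, 1.75 ± 0.30). Serpins had 5 rises and 2 falls among 11, and SERPINF1, an inhibitor of vessel growth, went from 167 and 196 to 547 and 572 (1.67 ± 0.12).

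Vesicle and turnover genes were called in both directions. RAB GTPases had 11 rises (22.4%) and 5 falls (10.2%) among 49, and autophagy genes 14 (25.0%) and 5 (8.93%) among 56. RAB7B, a late endosome GTPase of myeloid cells, went from 490 and 529 to 890 and 957 counts (0.90 ± 0.10), VMP1, which builds autophagosomes, from 1049 and 1051 to 1546 and 1554 (0.60 ± 0.088), and DRAM1 from 279 and 253 to 418 and 432 (0.72 ± 0.12). Each of the 3 had separate ranges in the groups. With either shRNA library left out, the rises numbered 7 for RAB and 7 for autophagy genes; the falls were 3 and 2 for RAB without library 1 or 2, and 3 and 0 for autophagy. Retinoid and vitamin D genes had 8 rises and 4 falls among 20; TGM2, a retinoid-induced transglutaminase, went from 22 and 17 to 101 and 90 (2.33 ± 0.24), and CD38, another retinoid target, from 46 and 39 to 86 and 88 (1.07 ± 0.21). The retinoid rises were 5 with DESeq2, and the falls 1 with DESeq2 or without DDX6 shRNA library 1, 0 without library 2 and 2 with the replicate block. Glucocorticoid-induced genes had 3 and 6 among 21, with 3 falls by DESeq2; FKBP5 rose (0.55 ± 0.10) and NFKBIA fell (-0.62 ± 0.12). Tyrosine phosphatases had 6 rises and 3 falls among 23, 2 of which passed only through the shRNA libraries, with PTPN9 lower (485 and 491 to 222 and 234, -1.06 ± 0.12); their falls were 5 and 7 without control 1 or 2 and 1 without DDX6 shRNA library 1. TRIM genes had 7 and 11 among 41, 2 of which passed only through the shRNA libraries, and 1 and 7 by DESeq2; TRIM66 went from 405 and 445 to 257 and 228 (-0.77 ± 0.12). The TRIM rises were 4 without control 2 and 3 when either shRNA library was left out, and the falls 6 and 4 without shRNA library 1 or 2.

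Several genes outside these lists went from few counts to many. ARC, an immediate early gene of neurons, had 0 counts in both controls and 78 and 77 with DDX6 shRNA, at least 53.2-fold higher against 3 counts over the control group. HTRA3, a secreted serine protease, went from 23 and 32 counts to 547 and 555 (4.36 ± 0.17), and SPARC, a matrix glycoprotein, from 17 and 14 to 310 and 307 (4.34 ± 0.20). MEGF6 went from 13 and 9 to 186 and 160 (adjusted p = 3.87e-20), and the MHC class II modulator gene HLA-DOA from 3 and 4 to 80 and 72 (4.43 ± 0.36). The water channel gene AQP1 had 3 counts over both controls and 83 over both shRNA libraries, 28.5 times as many (95% interval from counting error 9.41 to 140.9). None of these had over 32 counts in a control library. ARC, HLA-DOA and AQP1 passed the filter only through the DDX6 shRNA libraries and so had to differ. Marked falls were fewer. RUBCNL, which acts in autophagosome maturation, went from 466 and 440 to 95 and 101 (-2.17 ± 0.14), STC2, a secreted stanniocalcin, from 465 and 483 to 142 and 140 (-1.71 ± 0.13), and the kinase gene LRRK2 from 46 and 40 to 12 and 8 (-2.05 ± 0.33).

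By change in CPM, the leading rise was SRGN, the granule proteoglycan serglycin, with 19203 and 18991 counts in the controls and 35762 and 35305 with DDX6 shRNA (0.94 ± 0.067). HLA-DRA, an MHC class II chain, had 3519 and 3691 against 10663 and 11522 (1.66 ± 0.075) and PSAP, the lysosomal saposin precursor, 6695 and 7163 against 10960 and 11235 (0.72 ± 0.072). Among granule proteases ELANE, neutrophil elastase, had 6567 and 7781 against 13140 and 12625 (0.89 ± 0.074), while MPO, myeloperoxidase of the same granules, had 10798 and 12054 against 7131 and 7466 (-0.60 ± 0.073). Within 1 granule type, then, a protease rose and the peroxidase fell, with no overlap in either. HNRNPA1, a splicing factor, fell from 14022 and 14369 to 9192 and 9182 (-0.59 ± 0.070) and RPL13A, a ribosomal protein, from 32676 and 36033 to 26184 and 25061 (-0.38 ± 0.068).

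DNA repair genes fell more often than genes at large. Of 106 tested, 40 fell and 6 rose, against 15.2% and 18% of all genes, with a median log2 fold change of -0.22. UNG, the uracil glycosylase that starts base excision repair, went from 735 and 773 to 392 and 403 counts (-0.88 ± 0.10, adjusted p = 7.18e-10). NEIL3, another glycosylase, went from 179 and 175 to 85 and 84 (-1.02 ± 0.16), the helicase gene RECQL4 from 1186 and 1269 to 725 and 700 (-0.74 ± 0.093), and BRCA2, of homologous recombination, from 345 and 304 to 168 and 184 (-0.84 ± 0.13). The members thus came from base excision as well as strand break repair. In all 4 the groups did not overlap, as was common over all genes. The folds were small beside those of the macrophage genes. With DESeq2 24 of the 106 fell, in a fit where 1006 of all 13940 genes fell. The falls were fewer also when either DDX6 shRNA library was left out, as were the falls over all genes. The 6 rises were 2 with DESeq2, 3 with the replicate block and 1 when either shRNA library was left out. Enzymes of nucleotide synthesis had 10 rises (16.4%) and 12 falls (19.7%) among 61, near the shares over all genes, with a median of -0.05. Among the falls, DUT, which removes dUTP, went from 1565 and 1700 to 976 and 955 (-0.72 ± 0.089, 14.5% of exons opposite AC023355.1). The guanylate kinase gene GUK1 of this list went from 815 and 975 to 442 and 419 (-1.01 ± 0.10). Their rises were 5 with DESeq2 and 6 without DDX6 shRNA library 1, and the falls 5 and 7 without library 1 or 2.

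Of 33 tested nuclear pore genes 12 fell and 1 rose (median -0.18). NUP62, a protein of the central channel, went from 1274 and 1396 to 954 and 923 counts (-0.47 ± 0.091; 10.4% of its exons lie opposite ATF5) and POM121C, a membrane anchor with near-identical copies, from 375 and 378 to 260 and 257 (-0.50 ± 0.12). The falls were 6 with DESeq2, 7 with the replicate block and 3 when either shRNA library was left out. Tubulins had 1 rise and 5 falls among 19, with 3 falls by DESeq2 or with the replicate block and 2 when either shRNA library was left out.

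The cofactors on which KMT2A fusions depend were tested as 1 list with the super elongation complex and Polycomb genes. Of 62 tested 18 fell and 4 rose (median -0.17). CCNT1, the cyclin of the elongation kinase, went from 434 and 360 to 228 and 242 counts (-0.72 ± 0.12), AFF3, a scaffold of the complex, from 253 and 239 to 140 and 133 (-0.81 ± 0.14), and EPOP, a Polycomb partner, from 186 and 197 to 110 and 102 (-0.81 ± 0.15). All 3 were lower in both shRNA libraries than in either control. MEN1, the menin gene (-0.23 ± 0.11, adjusted p = 0.102), and MLLT3, the fusion partner in MOLM-13 (-0.29 ± 0.17, adjusted p = 0.182), did not pass, nor did the KMT2A target genes HOXA9 (0.06 ± 0.092, adjusted p = 0.648) and MEIS1 (-0.13 ± 0.12, adjusted p = 0.44). The falls numbered 9 with DESeq2 and 8 when either shRNA library was left out, and the rises 1 to 2 in those fits and without control 2.

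**Figure D4:**
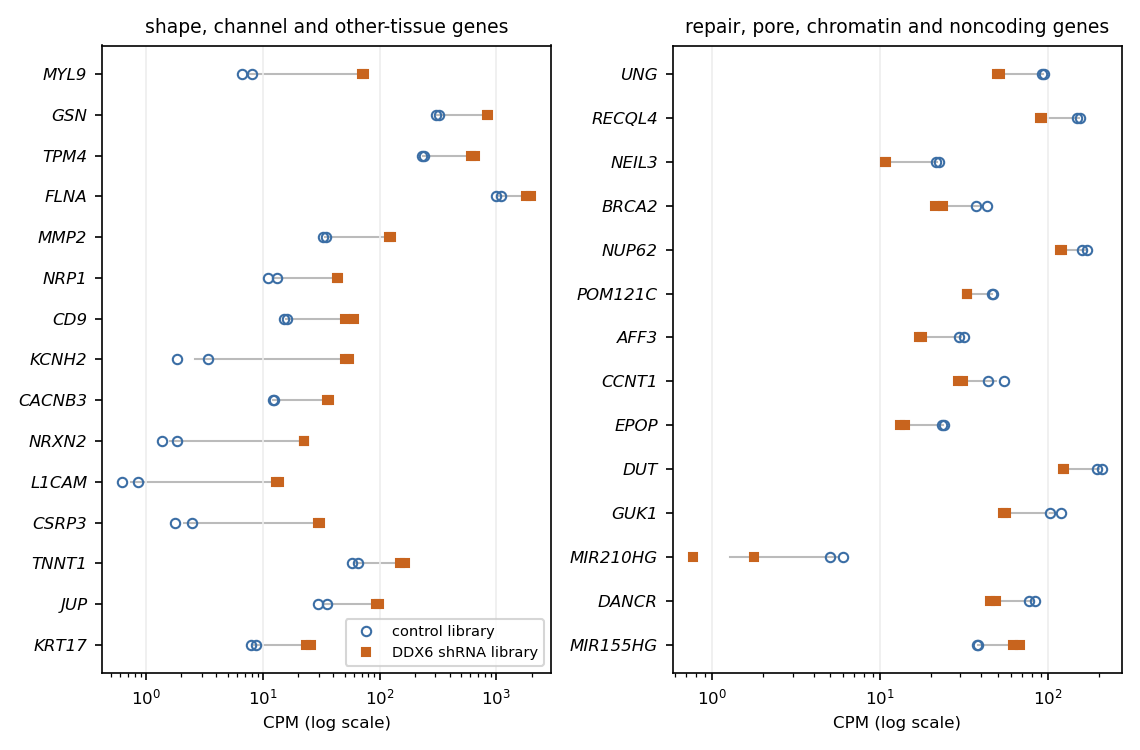
CPM (log horizontal axis) in each MOLM-13 library, drawn as in the plot of myeloid genes: shape, channel and other-tissue genes on the left, repair, pore, chromatin and noncoding genes on the right. The groups stand furthest apart for KCNH2 on the left (log2 fold change 4.34) and for MIR210HG on the right (-2.10).

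Host transcripts of microRNAs were followed as noncoding RNAs, since DDX6 works in microRNA repression; the libraries do not measure the mature microRNAs. The products of 2 host genes that moved in opposite directions have unrelated seeds, shown in RefSeq's sequence on GRCh38.p14 with bases 2 to 8 in capitals.
hsa-miR-155-5p, chr21:25573983-25574006, plus strand: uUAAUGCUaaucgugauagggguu
hsa-miR-210-3p, chr11:568112-568133, minus strand: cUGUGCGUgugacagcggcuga
MIR155HG, host of the inflammation-linked miR-155, had 307 and 309 counts in the controls and 532 and 481 with DDX6 shRNA (0.76 ± 0.11, adjusted p = 3.00e-07). MIR210HG, host of the hypoxia-linked miR-210, had 48 and 41 against 14 and 6 (-2.10 ± 0.34, adjusted p = 1.20e-06). Neither overlapped between the groups. Among all 48 tested genes of this list, 7 rose and 11 fell; DANCR, a snoRNA host, fell from 613 and 680 to 354 and 385 (-0.77 ± 0.11, 11.9% of exons opposite AC104066.1), and MALAT1 (-0.14 ± 0.080, adjusted p = 0.175) and NEAT1 (-0.08 ± 0.084, adjusted p = 0.501), the abundant nuclear RNAs, did not pass. The rises numbered 3 with DESeq2, and the falls 6 with DESeq2 and 6 and 5 without DDX6 shRNA library 1 or 2.

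In further families the share called ran from 14.3% (circadian clock genes) to 37.5% (polyamine and arginine genes), near or below the 33.2% over all genes tested except in the last. Wnt pathway genes had 5 rises and 6 falls among 38 tested (2 passed only through the DDX6 shRNA libraries), nuclear receptors 5 and 4 among 29, ubiquitin-specific proteases 7 and 5 among 45, and polyamine and arginine genes 5 and 4 among 24. F-box proteins had 4 and 5 among 49, and metallothioneins and zinc transporters 3 and 4 among 23. Circadian clock genes had 0 rises and 3 falls among 21. KLF and SP factors had 0 and 3 among 15, YAP and TEAD pathway genes 2 and 1 among 16, and regulators of G protein signalling 5 and 3 among 25. Such counts moved by a few genes between fits; ubiquitin-specific proteases, for one, had 12 rises without control 1 and 3 without DDX6 shRNA library 2, and F-box proteins 8 falls without control 2 and 2 when either shRNA library was left out.

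The MOLM-13 change was tested against the change in HEL for the 12316 genes measured in both lines, and 20.7% differed by the interaction term of edgeR's fit. The lines may also differ in their hairpin, so line and hairpin cannot be told apart. Of the macrophage list 9 genes were tested in both lines; 1 of these, GPNMB, differed, and in HEL 6 of the 9 rose and 0 fell. GPNMB had a log2 fold change of 2.40 in MOLM-13 and 0.27 in HEL (difference 2.12, edgeR adjusted p = 5.89e-04). Outside that list CSF1R, a receptor tyrosine kinase gene, had 1.29 and 0.08 (difference 1.20, edgeR adjusted p = 0.00383). KCNH2 rose in MOLM-13 and had 0.05 in HEL (difference 4.28, adjusted p = 7.56e-17). In all 3 the MOLM-13 change was the more positive. CXCL8 differed most among the named genes in the other direction: it fell in MOLM-13 and its log2 fold change in HEL was 3.46 (difference -5.27, adjusted p = 2.03e-11). CXCR4 (-0.87 and 0.25, difference -1.14, adjusted p = 2.53e-05) and NRP1 (1.84 and 4.34, difference -2.49, adjusted p = 0.00114) also had lower values in MOLM-13.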

How the data were processed

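Total RNA of MOLM-13 cells (4 libraries), isolated with a miRNeasy kit and made into libraries with an NEBNext Ultra II kit, per the labels' protocols, was sequenced by the authors, who deposited raw read counts per gene. STAR, SAMtools 1.12, DESeq2 and GRCh38 are named in the submitters' processing notes; these sources name no counter, strand setting or annotation release. Gene names, overlaps and GC content were taken from GENCODE release 29 by gene symbol, and sequences from RefSeq (GRCh38.p14).

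All 61544 deposited counts per library were filtered with edgeR 4.0.16 (filterByExpr, minimum count 10), scaled by TMM and fitted with the quasi-likelihood model on the 4 MOLM-13 libraries, with Benjamini-Hochberg adjustment over 13940 genes and a threshold of 0.05. Errors of log2 fold changes are standard errors worked back from the log2 fold change and the quasi-likelihood F statistic, with 2 libraries a group. Levels in CPM use TMM-scaled library totals (7888318 to 8174432 counts before scaling), except the sums of cell type markers, which use the unscaled totals. With 2 residual degrees of freedom, the spread is largely shared across genes (prior degrees of freedom 51.9). Intervals and floors cover counting error only. The difference between the lines is the interaction term of a fit of all 8 libraries. The fit was tested on simulated data. Alternatives were DESeq2 1.42.0, other scalings and filters, a replicate block, each library left out and, added after seeing the data, a GC trend removed. Library numbers did not pair the groups (correlation of deviations -0.0858).

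The members and gene lists were chosen with earlier results of these data known. Genes are named by rule: DDX6, the 20 highest and 20 lowest folds among called genes with a symbol, groups that do not overlap and at least 5 CPM in the higher group, the 10 largest CPM changes each way, and up to 4 called members of each list. Genes named as not passing, and PECAM1, were chosen after their values were seen. Of the genes tested 890 have no symbol. Some genes and 1 gene list are not reported here.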

Additional observations from a re-analysis of the deposited data

Results flagged for a closer look

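Of the 144 genes given with a fold change in the text, 98 were tested in both lines, and for 66 of those that passed the test in MOLM-13 the change also differed from that in HEL (edgeR interaction term, adjusted over 12316 genes). The MOLM-13 value was the more positive for 46 and the more negative for 20, and in 9 the 2 lines had opposite signs. All values below are MOLM-13 minus HEL. Among genes of macrophages, other myeloid cells and immune receptors, the difference of the log2 fold changes was 2.12 for GPNMB, 1.20 for CSF1R, 0.57 for FCGRT, 0.90 for CLU, 2.64 for SERPING1, 0.68 for CIITA, 1.33 for TPSB2 and -2.0 for CTSG. Further values in this group were -0.98 for GATA2, -1.03 for CTSK and -0.87 for NLRP1. For chemokine, TNF, kinase and related signalling genes it was 3.25 for TIE1, 2.98 for TNFRSF25, 1.99 for TNFRSF4, 0.73 for PECAM1, 2.24 for TGM2, 0.49 for PTPN9, -1.48 for ANXA1 and -1.14 for CXCR4. Further values in this group were -5.27 for CXCL8. For genes of lipid mediators and metabolism it was 2.35 for CERS4, 2.16 for ALOX12, 1.44 for PTGIR, 0.54 for PTGS1, 0.71 for PLTP, 0.32 for CD36, -0.46 for LPCAT1 and 1.48 for GSTM3. Further values in this group were 1.29 for GSTM2, 1.29 for QPRT, 0.64 for NQO1, 0.47 for PRDX1, 0.52 for ECHS1 and 0.78 for SLC48A1. For genes of shape, surface and transport it was 2.75 for MGAT3, 1.96 for MYL9, 1.88 for ST8SIA6, 1.65 for SERPINF1, 1.09 for ABCC4, 0.99 for TPM4, 0.80 for CD9 and 0.75 for PLXND1. Further values in this group were 0.71 for CD82, 0.67 for SEMA7A, 0.61 for ABCC1, 0.48 for FLNA, 0.38 for ANXA2, -0.93 for SLC37A2 and -2.49 for NRP1. For channel, synaptic, muscle and matrix genes and LRRK2 it was 4.28 for KCNH2, 2.96 for SPARC, 2.91 for NRXN2, 1.21 for BEX1, 0.80 for CACNB3, 0.45 for TNNT1 and -2.38 for LRRK2. For repair, pore, chromatin, noncoding and abundant genes it was 0.22 for RPL13A, -0.23 for HNRNPA1, -0.36 for GUK1, -0.46 for NUP62, -0.47 for DUT, -0.51 for BRCA2, -0.55 for NEIL3 and -0.55 for EPOP. Further values in this group were -0.72 for RECQL4 and -0.86 for DANCR. Each line has 2 libraries a group, and the HEL and MOLM-13 libraries share no control.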

How the results depend on the processing

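Counts of called genes depended on the fit more than directions did. DESeq2 called 1610 higher and 1006 lower, and a fit with no filter on low counts 812 and 288 of 32727 genes tested, so that 73.8% of its calls were higher against 54.1% as reported. Leaving out 1 library gave between 1497 and 2772 higher and between 836 and 2308 lower; the remaining library of that arm is then assumed to vary like the other group, and the low values came without a DDX6 shRNA library. The other scalings and filter, all 8 libraries in 1 model, the replicate block (2138 and 1631, from a pairing the data do not show) and the GC trend removed (2966 and 2669) stayed within 1.5 times of the reported counts. No gene called as reported was called the other way under these alternatives, but the median log2 fold change over all genes was 0.03 with no filter against -0.02 as reported, and in 9 of 61 lists the larger of rises and falls changed places in at least 1 alternative: cytokine ligands, for one, had 6 rises and 5 falls with the GC trend removed against 3 and 5, and Wnt genes 7 and 6 with all 8 libraries in 1 model against 5 and 6. The log2 fold change of DDX6 passed in all of them. Of the 135 called genes given in the text, all stayed called under every alternative except the one with no filter, which lost 11, among them MIR210HG, CXCL8, CTSK and CCNT1. The text gives only a part of the genes the naming rule picked, so this does not describe the rest. Of 291 genes picked by rule or given in the text, 12 lost their call with DESeq2 and 81 with no filter. Some also lost it with 1 library left out. Of the 101 list counts of at least 3 members, 91 moved by over 1.5 times with no filter, 50 with DESeq2 and 52 without either of the DDX6 shRNA libraries, and 0 with other scalings or a filter of 1 CPM; the cause was not tested. At this depth, 3 counts are 0.367 to 0.383 CPM, which limits folds of genes near 0 in the controls.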
